A study of Mus musculus with 4 samples.

Results

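The genes described here are the transcription factor gene Nfe2l2, which encodes NRF2, the catalase gene Cat, and 8 genes of antioxidant enzymes that are textbook NRF2 targets or selenium-dependent peroxidases (Hmox1, Nqo1, Gclm, Gclc, Gpx1, Gpx2, Txnrd1 and Srxn1). They were chosen by name, with earlier results of these data known, as the rows of the deposited expression table that carry these symbols, summed per symbol. All 10 were found, of 24111 genes in the table, and all 10 passed the filter of a mean of 1 FPKM (fragments per kilobase of transcript, relative to the depth of each library) that left 10688 protein-coding genes for comparison.

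The study sequenced RNA of mouse embryonic stem cells in 4 libraries, 1 per line. The control was the parental line e14tg2a, of 129/Ola strain. The other lines were knockouts made in it, Dnm1l-/-, Fis1-/- and Mff-/-, and all were at passages 30 to 35. All lines grew on mouse embryonic fibroblast feeders in low glucose DMEM with serum and leukemia inhibitory factor, and no source used here gives how many clones a line represents. With 1 library per line no spread between cultures was measured, no test was made, and every comparison is between libraries. The 95% intervals below cover counting error only, from estimated fragments, not the spread between cultures.

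NRF2 is held at a low level by KEAP1, which presents it to the CUL3 ubiquitin ligase. When electrophiles or peroxides modify KEAP1, NRF2 accumulates, pairs with small MAF proteins and binds antioxidant response elements, from which BACH1 can displace it. Its targets make glutathione, reduce thioredoxin, and remove quinones and heme. Catalase breaks down hydrogen peroxide in peroxisomes, organelles that DRP1 (the product of Dnm1l), FIS1 and MFF also help to divide, as they do mitochondria.

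Sequences upstream of the start site are shown for the genes that were furthest above control in Dnm1l-/- and Fis1-/-, Nfe2l2 and Cat, and for target genes with a match to the core of the antioxidant response element. They are RefSeq's, from GRCm38.p6, the assembly that mm10 is built on, and run 5′ to 3′ on the strand of the gene. The table of start sites held 8 of the 10 genes, and Hmox1 and Gclc were not among them. Capitals mark TGACNNNGC on either strand, and positions count from the start site, with the first transcribed base as 1.

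Nfe2l2, chr2:75704664-75704913, minus strand: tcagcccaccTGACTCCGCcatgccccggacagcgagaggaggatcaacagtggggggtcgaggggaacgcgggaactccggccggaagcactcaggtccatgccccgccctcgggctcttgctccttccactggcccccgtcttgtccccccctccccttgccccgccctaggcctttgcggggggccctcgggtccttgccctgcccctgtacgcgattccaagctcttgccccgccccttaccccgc
Cat, chr2:103485154-103485403, minus strand: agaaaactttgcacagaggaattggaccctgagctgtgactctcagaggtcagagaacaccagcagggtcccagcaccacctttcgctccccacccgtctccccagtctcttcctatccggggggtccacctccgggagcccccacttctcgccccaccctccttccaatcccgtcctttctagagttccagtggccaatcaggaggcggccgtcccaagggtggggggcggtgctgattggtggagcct
Gclm, chr3:122245397-122245457, plus strand: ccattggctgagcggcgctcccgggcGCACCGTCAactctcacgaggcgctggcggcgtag
Txnrd1, chr10:82859088-82859148, plus strand: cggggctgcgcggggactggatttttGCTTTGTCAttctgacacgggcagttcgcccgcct

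The core lay at -240 to -232 in Nfe2l2, or -262 to -254 from the start of its transcript in the expression table, which lies 22 bases downstream of RefSeq's. It lay at -134 to -126 in Gclm, at -92 to -84 of the middle of 3 Txnrd1 starts and, inside the transcript, at 29 to 37 in Srxn1. It was absent from the windows of Cat, Nqo1, Gpx1 and Gpx2, which reach from 250 bases before to 50 bases after the start. Of all 32851 windows of that length, 12.4% held the core. A match describes these letters and does not show binding.

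The 4 libraries had an estimated 35300000 to 37900000 fragments each, read from the spacing of low values. Stem cell markers were present in every library (10 of 10 at 1 FPKM or more, Pou5f1 at 808 to 1753 FPKM). The sum of 9 trophectoderm markers was 47.1 FPKM in control and 90.1 (Dnm1l-/-), 47.9 (Fis1-/-) and 54.7 (Mff-/-). Of the 5 of these that passed the filter, 3 were above control in Dnm1l-/-, Eomes and, more than 2-fold, Krt8 and Krt18. Tfap2c and Ascl2 were below it. Of those that did not pass, Gata3 and Krt7 were above control in Dnm1l-/-, and Cdx2 and Elf5 were below it. Krt8 and Krt18 gave most of the Dnm1l-/- sum, so its rise rests on these keratin genes and not on the list as a whole. The sum of 9 extraembryonic endoderm markers was 6.58 to 11.4 FPKM, of which Lama1 gave 3.71 to 9.62, and 6 to 8 were under 1 FPKM in each library. Lama1 was above control in Dnm1l-/- and Fis1-/-, as the sum was. Gata4, Gata6, Sox17, Sox7, Dab2 and Foxa2 were below control in both. The targeted genes were lowest in their own knockouts, Dnm1l at 22.9 FPKM against 35.0 in control, Fis1 at 56.2 against 103 and Mff at 11.8 against 28.9. Of 20 feeder fibroblast markers, 10 to 13 were under 1 FPKM in each library and none was at 0. Their sum was 115 to 136 FPKM, of which Fn1 alone gave 50.1 to 107. Without Fn1 it was 29.3 in control and 23.7 (Dnm1l-/-), 26.3 (Fis1-/-) and 83.0 (Mff-/-), of which S100a4 gave 44.0. In bulk RNA, fewer cells of a type and less RNA per cell cannot be told apart.

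In Dnm1l-/- and Fis1-/-, Nfe2l2 and Cat were more than 2-fold above control, 7 of the other 8 genes were above control by less, and Hmox1 was below it. In Mff-/- the set divided. Gpx1 and Gpx2 were more than 2-fold above control, Nqo1, Gclc and Txnrd1 were near 2-fold below it, and the other 5 lay closer to it. Each difference below is knockout minus control in log2(FPKM + 1), so that of a low gene is understated, and a gene was called where this difference reached 1 or -1. By this rule 2 of 10 genes were called higher and 0 lower in each comparison. Among all 10688 genes, 2.51% were called higher and 2.09% lower in Dnm1l-/-, 1.8% and 1.89% in Fis1-/-, and 2.61% and 2.89% in Mff-/-. Because the 10 genes were chosen with earlier results of these data known, these shares are a description and not a test of the set. The median difference of the 10 genes was 0.35 for Dnm1l-/-, 0.34 for Fis1-/- and -0.17 for Mff-/-, beside 0.01, 0.01 and -0.07 over all genes. The 3 comparisons share the control library, so a high or low value there moves all of them.

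**Figure D1:**
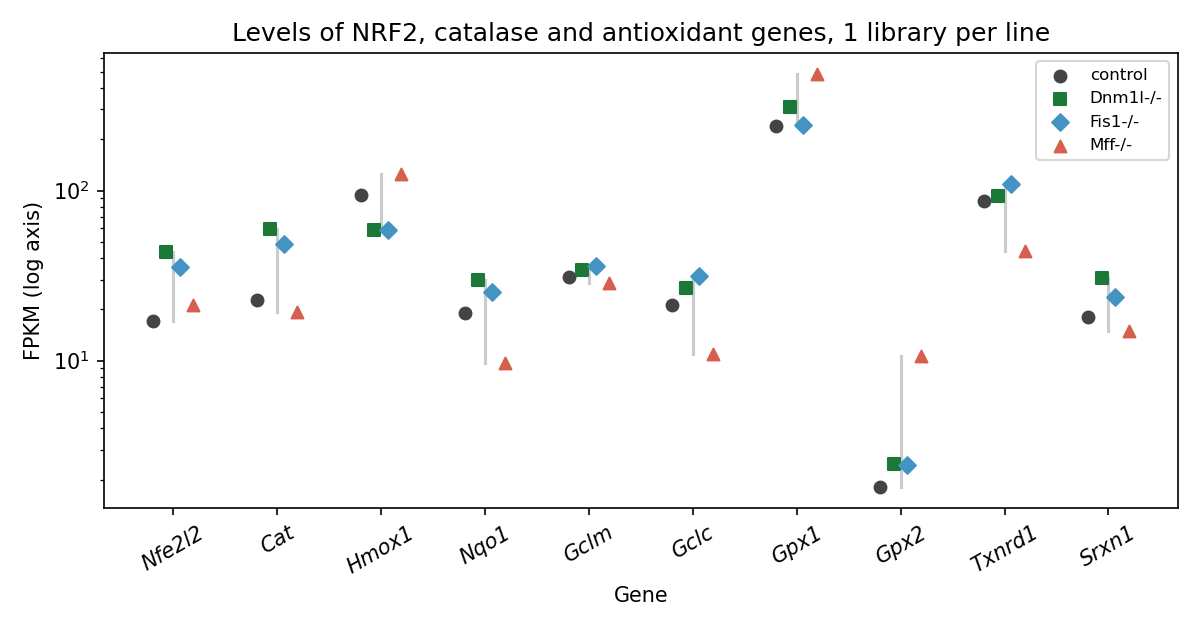
FPKM on a log axis for each of the 10 genes in the 4 libraries, 1 point per library, with a grey line from the lowest to the highest. Nfe2l2 and Cat are highest in Dnm1l-/-, and 6 genes are lowest in Mff-/-, while Gpx1, Gpx2 and Hmox1 are highest there.

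Nfe2l2 lies on chromosome 2 (mm10, 75675519 to 75704641, minus strand) and has 1 transcript in the table, NM_010902, with 5 exons. It stood at 17.1 FPKM in control and 43.8 (Dnm1l-/-), 35.4 (Fis1-/-) and 21.4 (Mff-/-). Control was the lowest library, and each step in the order was larger than counting error. The level in Dnm1l-/- was 2.57 times that of control (log2 difference 1.31, interval 1.23 to 1.39), which ranked 158th from the top of 10688 genes. In Fis1-/- it was 2.08 times control (1.01, 0.93 to 1.09), at the edge of the 2-fold rule, and in Mff-/- 1.25 times (0.31, 0.22 to 0.40). The nearest compared genes on either side, Hnrnpa3 and Agps, differed from control in Dnm1l-/- by 0.24 and 0.26 on the same scale.

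Keap1, the NRF2 adaptor for degradation, was at 8.71 FPKM in control and 12.8 (Dnm1l-/-), 10.9 (Fis1-/-) and 6.40 (Mff-/-). The ratio of the Nfe2l2 to the Keap1 level was thus 1.96 in control and 3.43, 3.25 and 3.34 in the 3 knockouts, above control in each. In Mff-/- it was the lower Keap1 level as well as the higher Nfe2l2 level that gave this ratio. Bach1, the repressor at antioxidant response elements, was at 8.97 FPKM in control, 14.3 in each of Dnm1l-/- and Fis1-/-, and 4.86 in Mff-/-. Mafg, a small MAF partner, hardly varied (20.2 to 21.5 FPKM). Sqstm1, which encodes the autophagy adaptor p62 that binds KEAP1, was at 177 FPKM in control and 217 (Dnm1l-/-), 228 (Fis1-/-) and 94.2 (Mff-/-). Of 12 compared NRF2 regulators and partners, 0 were past 2-fold in any of the 3 comparisons. Among so few genes this is near the shares over all genes, 4.59% (Dnm1l-/-), 3.69% (Fis1-/-) and 5.5% (Mff-/-).

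Cat, on chromosome 2 at 103453904 to 103485153 (minus strand, 13 exons, NM_009804), is the peroxisomal enzyme that splits hydrogen peroxide into water and oxygen. It was at 22.8 FPKM in control and 59.3 (Dnm1l-/-), 48.5 (Fis1-/-) and 19.2 (Mff-/-). The libraries thus formed a high pair, Dnm1l-/- and Fis1-/-, and a low pair. The level in Dnm1l-/- was 2.60 times control (log2 difference 1.34, interval 1.27 to 1.41), in Fis1-/- 2.13 times (1.06, 0.99 to 1.13), and in Mff-/- 0.843 times (-0.23, -0.32 to -0.15). In Fis1-/- both Cat and Nfe2l2 fell short of 2-fold with a pseudocount of 5 (0.95 and 0.87) and relative to genes of like GC content (0.99 and 0.89). Its neighbours Apip and Nat10 differed from control by 0.35 and 0.06 in Dnm1l-/- and by 0.13 and 0.17 in Fis1-/-. Over the 850 compared genes of chromosome 2, which carries Nfe2l2, Cat and Srxn1, the median difference was -0.014 for Dnm1l-/-, -0.0045 for Fis1-/- and -0.025 for Mff-/-.

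Other compared genes of the peroxisome lay closer to control than Cat in Dnm1l-/- and Fis1-/-. Of 18 peroxisome assembly genes, 0 were past 2-fold in any comparison, with medians of 0.01 for Dnm1l-/-, -0.01 for Fis1-/- and -0.16 for Mff-/-. Of the 4 compared peroxisomal oxidases, which make hydrogen peroxide, 0 were past 2-fold. Over all genes 4.59% (Dnm1l-/-), 3.69% (Fis1-/-) and 5.5% (Mff-/-) were past 2-fold. A count of 0 among so few genes is near these shares. Of 4 compared genes of the FoxO and PGC-1 axis, known regulators of catalase in other cells, Foxo3 was called in Mff-/-, at 1.48 FPKM against 4.86 in control, and 0 were called in the other comparisons. Of the 4, Foxo1 was above control in Dnm1l-/- and Fis1-/- (0.45 and 0.41), as Cat was. Foxo4 (-0.78 and -0.88), Esrra (-0.44 and -0.55) and Foxo3 (-0.23 and -0.19) were below it, and the medians were -0.34 and -0.37.

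Gpx1, on chromosome 9 at 108339080 to 108340344 (plus strand, 2 exons), encodes the main cytosolic glutathione peroxidase, a selenoprotein. It was the most abundant of the 10 genes in every library, at 239 FPKM in control and 309 (Dnm1l-/-), 243 (Fis1-/-) and 486 (Mff-/-). Mff-/- stood apart at 2.04 times control (log2 difference 1.02, interval 0.99 to 1.06). Dnm1l-/- was at 1.29 times, and Fis1-/- could not be told from control within counting error (0.02, -0.02 to 0.06). Gpx1 gave 43.4% of the summed FPKM of the 10 genes in control and 63.0% in Mff-/-. The level of Gpx1 relative to Cat, both enzymes that remove hydrogen peroxide, was 10.5 in control and 5.21 (Dnm1l-/-), 5.01 (Fis1-/-) and 25.3 (Mff-/-).

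Gpx2, on chromosome 12 at 76792335 to 76795554 (minus strand, 2 exons), encodes the glutathione peroxidase best known from gut epithelium. It was at 1.80 FPKM in control and 2.48 (Dnm1l-/-), 2.43 (Fis1-/-) and 10.7 (Mff-/-). These stand for an estimated 73, 94, 94 and 409 fragments, so the steps among the other libraries rest on few fragments. Its difference in Mff-/- was 2.07 (interval 1.82 to 2.31), 5.96 times in FPKM, and the 9th highest of 10688 genes. Its neighbours Churc1 and Rab15 were at 0.55 and 1.23 in Mff-/-, on the same log2 difference scale.

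Differences in Mff-/- varied with transcript length over all genes. Across 10688 genes the Spearman correlation of the Mff-/- difference with transcript length was -0.46, genes not being independent replicates. The median was 0.47 in the shortest 10% of transcripts (292 to 1078 bases) and -0.36 in the longest. Gpx1 and Gpx2, at 1047 and 1067 bases, are among the shortest. Relative to the median there Gpx1 was at 0.55, no longer past 2-fold, and Gpx2 at 1.6. Both lie near the upper edge of that class, and the median of the next class (1079 to 1512 bases) was 0.21. The lower genes lay in classes with medians nearer 0, and relative to these Nqo1 was at -1.03, past 2-fold, Txnrd1 at -0.78 and Gclc at -0.70. The ratios given of Gpx1 to Cat, Nfe2l2 to Keap1 and Gclc to Gclm were not adjusted for length. In Mff-/- the class medians were 0.47 for Gpx1 and -0.04 for Cat. They were -0.04 for Nfe2l2 and -0.19 for Keap1, and -0.19 for Gclc and 0.02 for Gclm. Of 9 compared feeder markers in the same library, 3 were called higher (Thy1, Acta2 and S100a4) and Fn1 lower, and Twist1 and Fbln2 were also below control. The part of either in these values was not tested. The correlation with length was 0.05 in Dnm1l-/- and 0.15 in Fis1-/-.

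**Figure D2:**
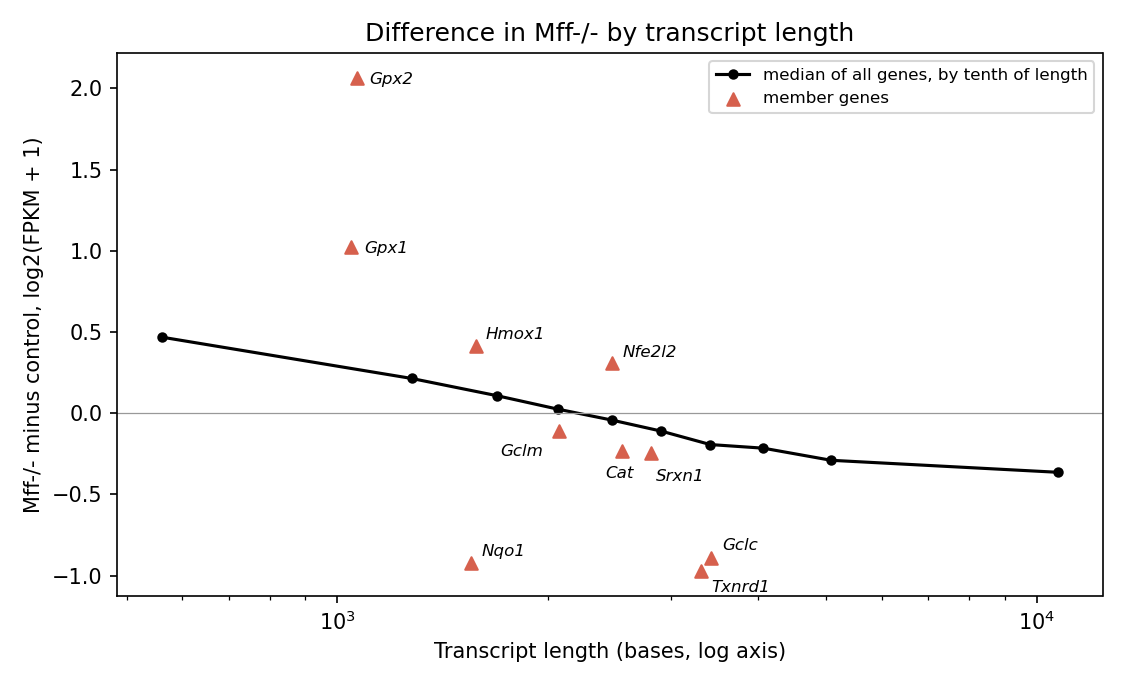
Difference of Mff-/- from control on the log2(FPKM + 1) scale (vertical axis) by transcript length in bases (log axis). Triangles are the 10 genes. The black line joins the medians of all compared genes in 10 classes of length, drawn at the geometric mean of the shortest and longest transcript of each. Gpx2 and Nqo1 lie farthest from the line, followed by Txnrd1, Gpx1 and Gclc, and Gclm, Cat and Srxn1 lie near it.

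Gclc and Gclm encode the catalytic and the modifier subunit of glutamate-cysteine ligase, the rate-limiting enzyme of glutathione synthesis. Gclc, on chromosome 9 at 77754535 to 77794489 (plus strand, 16 exons), was at 21.2 FPKM in control and 26.7 (Dnm1l-/-), 31.4 (Fis1-/-) and 10.96 (Mff-/-). Mff-/- was far below the rest, at 0.518 times control (log2 difference -0.89, interval -0.98 to -0.80), and Fis1-/- was the highest at 1.49 times control (0.55, 0.48 to 0.62). Gclm, on chromosome 3 at 122245557 to 122267215 (plus strand, 7 exons), was at 31.0 FPKM in control and 34.2 (Dnm1l-/-), 35.8 (Fis1-/-) and 28.7 (Mff-/-). It varied least of the 10 genes, by 1.25-fold between its extremes. The ratio of the Gclc to the Gclm level was 0.682 in control and 0.781 (Dnm1l-/-), 0.877 (Fis1-/-) and 0.382 (Mff-/-), lowest in Mff-/-.

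Txnrd1, on chromosome 10 at 82833951 to 82897724 (plus strand), encodes the cytosolic thioredoxin reductase, a selenoprotein that keeps thioredoxin reduced. Summed over its 4 transcripts it was at 87.2 FPKM in control and 92.6 (Dnm1l-/-), 109 (Fis1-/-) and 44.0 (Mff-/-). Mff-/- was at 0.505 times control (log2 difference -0.97, interval -1.02 to -0.92), just short of 2-fold, and Fis1-/- was at 1.25 times (0.32, 0.28 to 0.35).

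The Txnrd1 transcripts were not lower in Mff-/- to the same degree. NM_015762 was at 65.0 FPKM in control and 64.2 (Dnm1l-/-), 72.4 (Fis1-/-) and 40.7 (Mff-/-). In the GENCODE M21 annotation NM_001042513 has an exon of 107 bases that NM_015762 lacks (chromosome 10, 82860524 to 82860630). NM_001042513 was at 21.0, 26.6, 34.3 and 3.17 FPKM in the same order. A further transcript with an exon that overlaps it, NM_001042514, which starts at 82860341, was at 0.478 FPKM in control and at 4.11e-05 in Mff-/-. Transcripts that hold or overlap the exon made up 24.6% of the Txnrd1 FPKM in control and 29.3% (Dnm1l-/-), 32.1% (Fis1-/-) and 7.21% (Mff-/-). The estimate divides reads among transcripts that overlap almost whole, so these shares are less certain than the sum. NM_015762 alone gave a difference of -0.66 in Mff-/-.

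**Figure D3:**
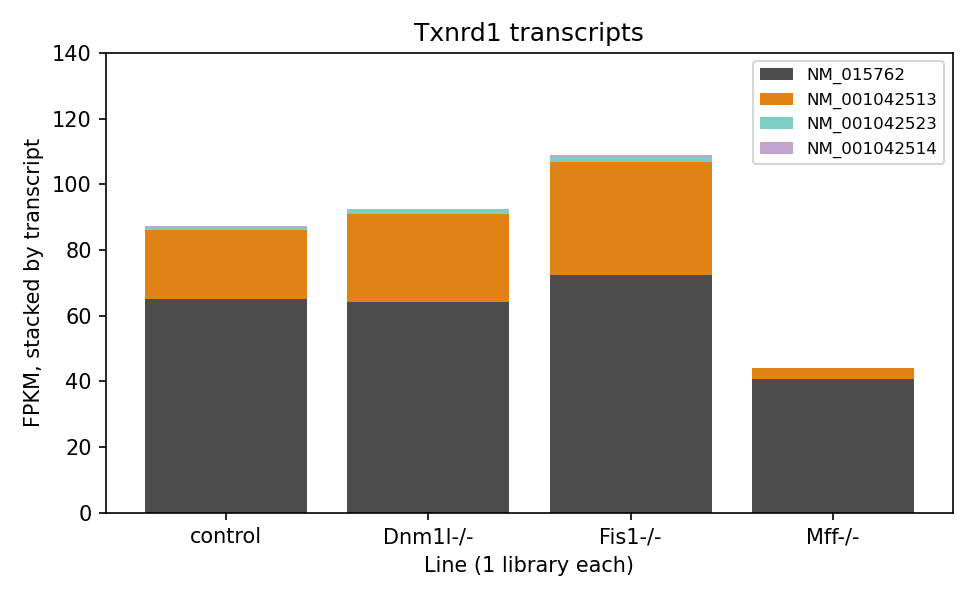
FPKM of the 4 Txnrd1 transcripts, stacked, in each library (bars from 0). The orange share, NM_001042513, is 21.0 FPKM in control and 3.17 in Mff-/-, while NM_015762 (dark) makes up most of every bar.

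Srxn1, on chromosome 2 at 152105524 to 152111376 (plus strand, 2 exons), encodes sulfiredoxin, which repairs overoxidised peroxiredoxins and is a well known NRF2 target. It was at 18.0 FPKM in control and 30.7 (Dnm1l-/-), 23.5 (Fis1-/-) and 15.0 (Mff-/-), the same order of libraries as Cat and Nqo1. In Dnm1l-/- it was at 1.71 times control (log2 difference 0.74, interval 0.66 to 0.82). Its neighbour Tcf15, 37.9 kb away between gene centres, had the opposite order, at 40.7, 6.74, 10.3 and 84.8 FPKM.

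Nqo1, on chromosome 8 at 107388225 to 107403205 (minus strand, 6 exons), encodes the quinone reductase often used as a readout of NRF2. It was at 19.2 FPKM in control and 29.6 (Dnm1l-/-), 25.3 (Fis1-/-) and 9.66 (Mff-/-). The levels in Dnm1l-/- and Fis1-/- were 1.55 and 1.32 times control, and that in Mff-/- was 0.504 times (log2 difference -0.92, interval -1.06 to -0.78). Mff-/- thus had the lowest Nqo1 level, and its ratio of Nfe2l2 to Keap1 RNA was above that of control. The protein and activity of NRF2 were not measured.

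Hmox1, on chromosome 8 at 75093618 to 75100593 (plus strand, 5 exons), encodes the inducible heme oxygenase, which NRF2 and the BACH1 repressor both control. It was the exception of the set, at 93.8 FPKM in control and 58.9 (Dnm1l-/-), 58.7 (Fis1-/-) and 126 (Mff-/-). The levels in Dnm1l-/- and Fis1-/- could not be told apart within counting error and were 0.628 and 0.626 times control (log2 differences -0.66 and -0.67). In Mff-/- it was at 1.34 times control (0.42, 0.37 to 0.47).

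Chromosome 8 genes as a whole were lower than control in all 3 knockouts. Over its 594 compared genes the median difference, less that of the other autosomes, was -0.32 for Dnm1l-/-, -0.31 for Fis1-/- and -0.28 for Mff-/-. The neighbours of Hmox1, Tom1 and Mcm5, were at -0.92 and -0.31 in Dnm1l-/- and at -0.85 and -0.54 in Mff-/-. Relative to the chromosome 8 median, Hmox1 was at -0.36 for Dnm1l-/-, -0.37 for Fis1-/- and 0.75 for Mff-/-, and Nqo1 at 0.91, 0.68 and -0.59. The direction was the same for both genes, and each size moved by over 1.5 times. By the same measure against the other autosomes, chromosome 6 was at -0.14 for Dnm1l-/-, -0.15 for Fis1-/- and -0.17 for Mff-/-. The 3 compared Y chromosome genes were at -2.19 for Dnm1l-/-, -2.17 for Fis1-/- and 0.24 for Mff-/-. What sets the values of these chromosomes was not tested.

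**Figure D4:**
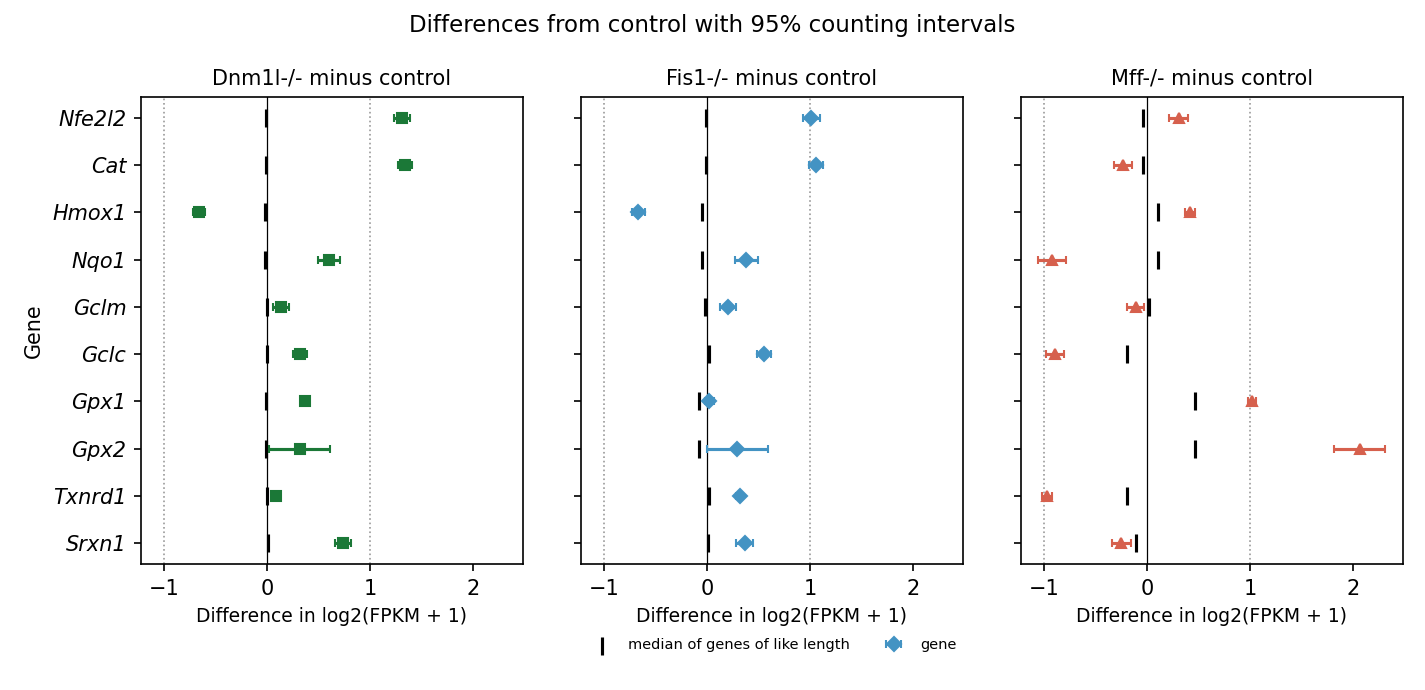
Difference of each knockout from control for the 10 genes on the log2(FPKM + 1) scale, 1 panel per knockout, with 95% counting intervals as bars and dotted lines at 2-fold. Black ticks give the median of all compared genes in the same of 10 classes of transcript length; they lie near 0 in Dnm1l-/- and Fis1-/-, and in Mff-/- at 0.47 for Gpx1 and Gpx2.

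By order of libraries, 6 of the 10 genes (Cat, Nqo1, Srxn1, Gclm, Gclc and Txnrd1) had Dnm1l-/- and Fis1-/- on top, then control, then Mff-/-. Nfe2l2 differed from these only in that Mff-/- was above control. Hmox1, Gpx1 and Gpx2 were highest in Mff-/-. Of 30 steps between neighbours in these orders, 5 were within counting error: Dnm1l-/- against Fis1-/- for Hmox1, Gclm and Gpx2, and Fis1-/- against control for Gpx1 and Gpx2. Likeness of pattern was measured as the root mean square distance between log2(FPKM + 1) values centred on each gene's mean over the 4 libraries. Within the set the closest pair was Gclc and Txnrd1 at 0.10, and Nfe2l2 and Cat were at 0.25.

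Among all compared genes, the 5 closest to Cat included Trim12c, Trf and Galnt6, at distances of 0.06 to 0.07. Trf, which encodes the iron carrier transferrin, was at 1.84, 6.36, 4.34 and 1.31 FPKM in control, Dnm1l-/-, Fis1-/- and Mff-/-. The 5 closest to Nfe2l2 included Casq1, Anxa3, Gpat2 and Pgc, at distances of 0.05 to 0.08 and levels of at most 8.52 FPKM. Casq1, Gpat2 and Galnt6 were at 0.554, 0.528 and 0.508 FPKM in control, where the added 1 shrinks their differences. Casq1 and Galnt6 passed the filter only through Dnm1l-/- and Fis1-/-, where they were high. Those closest to Gpx2 were Tmem141, Cplx2, Ggct, S100a6 and Mrps12, at 0.12 to 0.18. With 4 libraries many genes can share a pattern, so these are descriptions only.

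The wider pathway was followed in 13 lists with 173 genes, of which 143 passed the filter. In Dnm1l-/-, 7 were called higher and 6 lower, in Fis1-/- 6 and 5, and in Mff-/- 3 and 6. These were 9.09%, 7.69% and 6.29% of the genes compared, beside 4.59%, 3.69% and 5.5% over all genes. The lists, too, were chosen with earlier results of these data known. The medians of the 143 genes were 0.02, 0.05 and -0.06. So calls stood on both sides and the pathway as a whole lay close to the median of all genes.

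Of 19 compared glutathione S-transferase genes 3 were called higher in Dnm1l-/-, the same 3 in Fis1-/- and 0 in Mff-/-. Over all genes 2.51%, 1.8% and 2.61% were called higher in these comparisons. In each comparison 0 were called lower, which is near the 2.09%, 1.89% and 2.89% over all genes. Gstm2 was at 12.2 FPKM in control and 44.0 (Dnm1l-/-), 40.4 (Fis1-/-) and 10.5 (Mff-/-). Gstt1 was at 1.70, 9.14, 7.61 and 2.61 in the same order and Gstm6 at 0.389, 4.36, 2.57 and 0.804. Gstm6, which is among the 3 called, passed the filter only through Dnm1l-/- and Fis1-/-, where it was high. The Gstm genes share sequence, and values of single ones are uncertain where reads could be divided among them. Of 16 other NRF2 targets, the carbonyl reductase gene Cbr3 was at 18.7, 54.3, 38.5 and 33.9 FPKM, past 2-fold in Dnm1l-/- and Fis1-/-. Ugdh, which makes UDP-glucuronate for conjugation, was at 12.4, 31.9, 30.6 and 8.02, and Ptgr1, a reductase of prostaglandins and alkenals, at 14.6, 32.6, 25.4 and 11.9. In the same list Akr1b8, an aldo-keto reductase gene, was at 8.51, 2.32, 2.48 and 11.7 FPKM, above control in Mff-/- and below it in the others, as Hmox1 was, and the glycine transporter gene Slc6a9 was at 7.85, 0.683, 0.660 and 8.69. Cbr1 was called higher in Mff-/- alone, at 97.4 against 40.2 in control.

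In glutathione supply, the genes on either side of the ligase did not move together. Gss, glutathione synthetase, which follows glutamate-cysteine ligase, was at 11.6 FPKM in control and 37.3 (Dnm1l-/-), 29.8 (Fis1-/-) and 20.3 (Mff-/-), above control in all 3. Chac1, which degrades glutathione and is a target of the stress factor ATF4, was at 31.9, 2.09, 1.43 and 40.2 FPKM. Slc7a11, the cystine carrier, was low throughout (0.959 to 1.84 FPKM), and its partner Slc3a2 was at 113, 69.8, 68.1 and 144, the gene closest in pattern to Hmox1 of all compared. Ggct and Ggt1, enzymes of glutathione breakdown, were called higher in Mff-/- at 12.7 against 3.41 and at 5.83 against 1.24. Ggt1 passed the filter only through Mff-/-, where it was high. Gsr, which reduces oxidised glutathione, was between 23.6 and 36.1 FPKM.

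**Figure D5:**
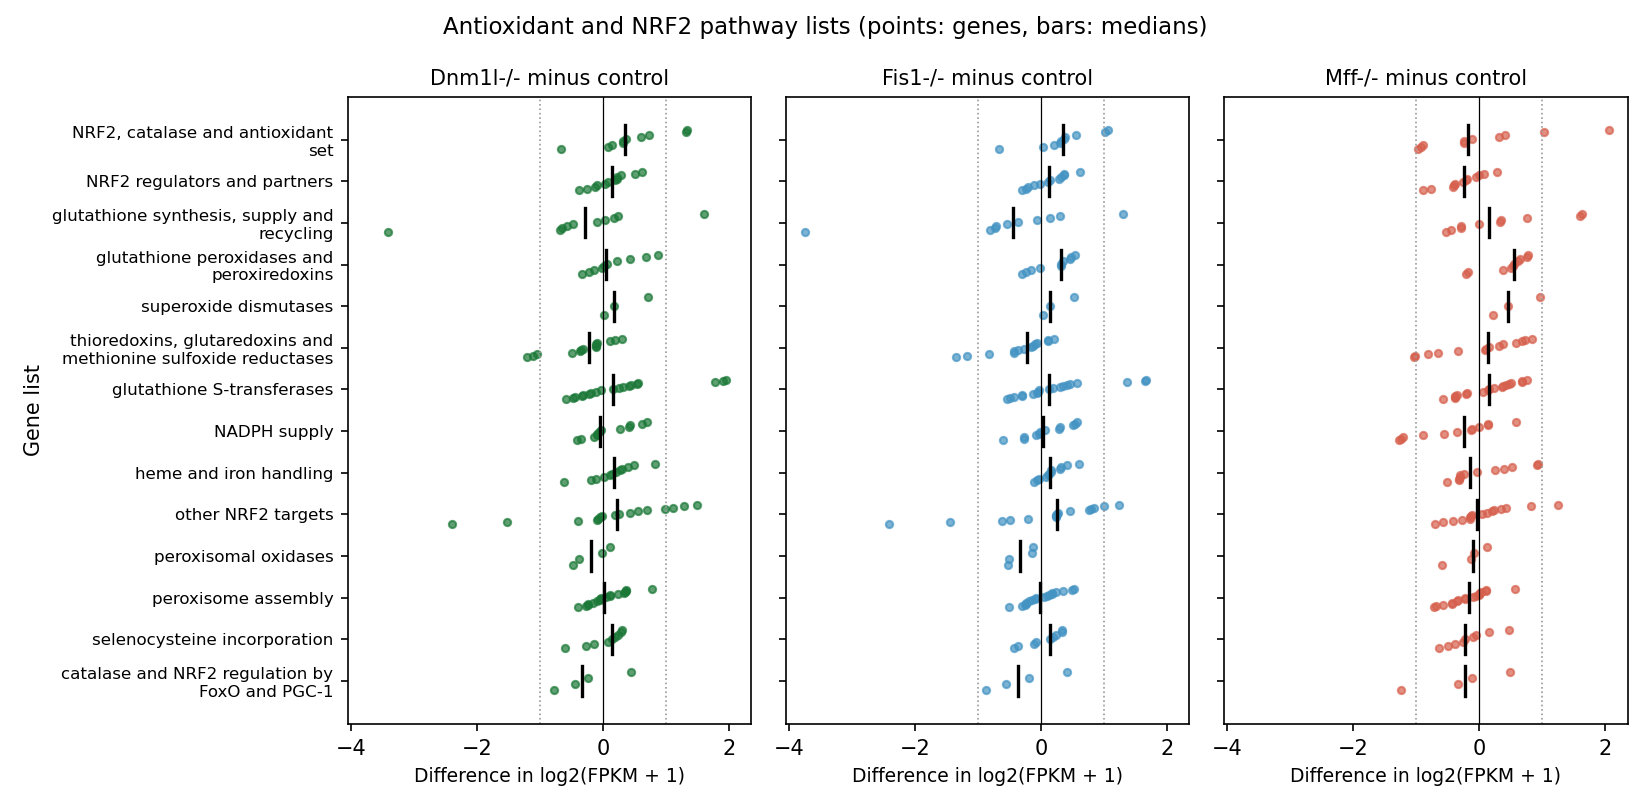
Differences from control on the log2(FPKM + 1) scale for the compared genes of each list (points, 1 per gene, spread vertically in order of value) with the list's median (black bar) and dotted lines at 2-fold. Nfe2l2 and Cat are the points past 2-fold in the top row for Dnm1l-/- and Fis1-/-, and the far left point of the glutathione supply row in these panels is Chac1.

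Among other peroxidases, 0 of 10 compared glutathione peroxidase and peroxiredoxin genes were past 2-fold in any comparison, and their median in Mff-/- was 0.55. Relative to genes of like transcript length, many of theirs being short, that median was 0.18. Gpx4, the peroxidase of lipid peroxides, was at 815 FPKM in control and 702 (Dnm1l-/-), 664 (Fis1-/-) and 1281 (Mff-/-), a difference in Mff-/- of 0.65, or 0.18 relative to genes of like length. Of the superoxide dismutases, Sod2 of the mitochondrial matrix was at 32.5, 54.3, 46.9 and 38.1 FPKM and Sod1 at 1052, 1195, 1164 and 1445. Ccs, the gene of the copper chaperone for SOD1, was at 24.3 in control and 48.5 in Mff-/-. Relative to genes of like length, the differences in Mff-/- were -0.01 for Sod1, 0.44 for Sod2 and 0.50 for Ccs. Of 9 genes that insert selenocysteine, which Gpx1, Gpx2 and Txnrd1 need, 0 were past 2-fold. Over all genes the shares past 2-fold were 4.59% (Dnm1l-/-), 3.69% (Fis1-/-) and 5.5% (Mff-/-). The counts of 0 for the peroxidase and selenocysteine genes are near these shares.

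Of 14 thioredoxin, glutaredoxin and methionine sulfoxide reductase genes, 0 were called higher in any comparison. Called lower were 3 in Dnm1l-/- (21.4%), 2 in Fis1-/- (14.3%) and 2 in Mff-/- (14.3%). Over all genes 2.09%, 1.89% and 2.89% were called lower. Glrx, a cytosolic glutaredoxin gene, was at 21.96 FPKM in control and 8.996 (Dnm1l-/-), 8.04 (Fis1-/-) and 23.9 (Mff-/-). Txnrd3 was at 8.76, 3.53, 4.52 and 3.78, and Sesn2, a sestrin gene induced by stress, at 65.7, 31.3, 28.6 and 31.7, below control in all 3 knockouts. Relative to genes of like length, the differences in Mff-/- were -0.92 for Txnrd3 and -0.985 for Sesn2, short of 2-fold. Of 12 NADPH supply genes, 3 were called lower in Mff-/- and 0 in the other comparisons. They were Me1 at 3.21 FPKM against 9.18 in control, Idh2 at 53.8 against 128 and Nnt, the mitochondrial transhydrogenase, at 3.15 against 8.59. G6pdx, the entry to the pentose phosphate pathway, was between 28.5 and 32.1. Of 12 heme and iron genes, 0 were past 2-fold in any comparison. Among so few genes this is near the shares over all genes, 4.59% (Dnm1l-/-), 3.69% (Fis1-/-) and 5.5% (Mff-/-).

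Some calls in Mff-/- depended on scale. Summed FPKM was 597917 to 623295 in control, Dnm1l-/- and Fis1-/- and 707731 in Mff-/-. Bringing each library to the mean total moved the median over all genes in Mff-/- by -0.15, and the share of higher genes among those called from 47.4% to 22.7%. On that scale Gpx1 was at 0.84, no longer past 2-fold, and Gpx2 at 1.91. Txnrd1 at -1.15, Nqo1 at -1.09 and Gclc at -1.06 were then called lower, but the median of all genes was itself at -0.22. Less that median they were at -0.93, -0.87 and -0.84, short of 2-fold, and Gpx1 was at 1.06, past it. The calls of Nfe2l2 and Cat in Dnm1l-/- did not depend on any of the alternatives tried. Across genes the difference was related to GC content by a Spearman correlation of -0.33 for Dnm1l-/-, -0.40 for Fis1-/- and 0.15 for Mff-/-.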

How the data were processed

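The authors deposited 1 table of FPKM values for 33818 RefSeq transcripts, with 1 column per library, per the file headers. The genome build mm10 and, with no role stated, StringTie 1.3.3b, R 3.6.1, STAR 2.5.2b and FastQC 0.11.5 are listed per the submitters' processing notes. No source used here says whether strand was used. The column headed Drp1 was matched to Dnm1l-/- by that synonym. The gene identifier gave a symbol to 552 of the 565 transcripts that lacked one, and 1 was added to starts, which lay 1 below RefSeq in 11533 genes.

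FPKM was summed per symbol (Python 3.11.15, pandas 2.3.3, numpy 2.4.6). Protein-coding genes with a mean of at least 1 FPKM were compared, each knockout minus control, on log2(FPKM + 1). Genes at 1 or -1 were called, with no test. Fragments per library were estimated from low values in genes with 1 transcript of at least 3000 bases, 89.6% to 92.4% of which lay within 0.15 of a whole multiple. Intervals take each gene's fragments as FPKM times length times that depth, with Poisson error. The code was tested on simulated data.

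The members and lists were chosen with earlier results of these data known. Named genes were the 10 members, pathway genes past 2-fold in at least 1 comparison, Keap1, Bach1, Mafg, Sqstm1 and the 5 closest in pattern, of which some are not reported here; the other genes named were chosen after their values were seen. Alternatives covered pseudocount, filter, scaling, transcripts summed and fold, and, added after seeing the data, centring on genes of like length or GC content (99.2% of genes had a GC value).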

Additional observations from a re-analysis of the deposited data

How the results depend on the processing

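In Dnm1l-/- the genes called were Nfe2l2 and Cat under each alternative that kept the 2-fold rule, and a 1.5-fold rule called 5. In Fis1-/- 0 were called with a pseudocount of 5 and 0 when centred on genes of like GC content. In Mff-/- 1 was called with a minimum mean of 5 FPKM, which leaves Gpx2 out, 4 with TPM, 4 when scaled to the mean total, 4 without the 1% most abundant genes, and 5 at 1.5-fold. Of 306 values of single genes under alternatives, 77 moved by more than their counting interval and 4 had another sign, all of differences under 0.21 in size: Gclm when centred on GC content in the 3 comparisons (-0.02, -0.01 and 0.08) and Txnrd1 in Dnm1l-/- by NM_015762 alone (-0.02).

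Over all genes, 491, 394 and 588 were called for Dnm1l-/-, Fis1-/- and Mff-/-. In that order the counts were 771, 669 and 1076 with a pseudocount of 0.1, 173, 126 and 190 with 5, and 1459, 1334 and 2556 at 1.5-fold. With a minimum of 5 FPKM they were 275 and 231 in Dnm1l-/- and Fis1-/-, and TPM gave 892 in Mff-/-. Of pathway genes, 13, 11 and 9 were called, 7, 7 and 3 with a pseudocount of 5, and 29, 23 and 35 at 1.5-fold. In Mff-/- 47.4% of called genes were higher, against 21.4% with TPM, 24.3% without the most abundant genes, 59.7% when centred on the median and 62.1% with a pseudocount of 5. The smaller counts with a higher pseudocount follow from its construction, and other causes were not tested.

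No paired analysis was possible because each line has 1 library, so neither a replicate block nor a left-out replicate was run. Gpx2, at an estimated 73 to 94 fragments in 3 libraries, is the gene of the set that depth limits most. The spread between cultures was not measured.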
